A study of Mus musculus with 6 samples.

Results

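The regions described here were distal stretches of the mouse genome that carried H3K4me1 in macrophages both with and without stimulation, and that had no H3K27ac peak nearby. They were chosen from the H3K4me1 peaks of lipopolysaccharide (LPS)-treated bone marrow-derived macrophages (BMDMs). A peak was taken when it lay on chromosomes 1 to 19, was at least 500 bp but under 2000 bp wide and shared at least 1 bp with an H3K4me1 peak of PBS-treated cells. Its summit also had to lie more than 1 kb from the transcription start site (TSS) of every annotated gene, with 1 per gene. The summit had to lie at most 100 kb from a protein-coding TSS, and no H3K27ac peak of either treatment could lie within 1000 bp. Of 73049 H3K4me1 peaks under LPS, 15369 met this rule, which is 21.04% (95% Wilson interval 20.7 to 21.3). They are called H3K4me1-only regions below.

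The data were CUT&RUN profiles, made by cutting DNA next to an antibody-bound histone mark and sequencing what is released. C57BL/6 BMDMs, grown from marrow in medium conditioned by L929 cells, were treated for 1 h with LPS, a bacterial cell wall component that Toll-like receptor 4 senses, or with PBS. Each treatment had 1 library for H3K4me1, 1 for H3K27ac and 1 for control IgG. There were no replicates, so differences between treatments are differences between 2 libraries, and intervals cover counting error only.

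H3K4me1 is monomethylated lysine 4 of histone H3 and marks enhancers whether or not they are active. H3K27ac, acetylated lysine 27 of histone H3, is added by the coactivators p300 and CBP and marks active enhancers and promoters. In macrophages, the lineage factor PU.1 opens many enhancers together with C/EBP and AP-1 factors, and LPS then brings NF-kB and IRF factors to part of them. Distal sites with H3K4me1 and no H3K27ac are commonly called primed or poised enhancers. The label of the regions used here was held to the peak lists alone, and no activity was measured.

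The following 6 regions show what the sequence under these peaks looks like. The regions next to Ube2e3, Dock2 and Steap3 had the highest −log10 q in the LPS list, and those next to Cd300a, Atf3 and Klf4 stand for macrophage identity genes, primary LPS response genes and genes of the response to interleukin (IL)-4, as the highest beside a gene of each list on the chromosomes used for this choice. Regions on 1 chromosome were left out of it, among them one next to the macrophage identity gene Csf1r with a higher −log10 q (22.0) than that of Cd300a (20.4). Each sequence is the forward strand of GRCm38 in the RefSeq assembly, 300 bp centred on the LPS summit. Capitals mark matches on either strand to 10 motifs, namely PU.1 (GAGGAAGT), C/EBP (TTGCNNAA), AP-1 (TGANTCA), NF-kB (GGGNNTTTC), IRF (GAAANNGAA), RUNX (TGTGGTT), the motif of the MITF/TFE family (TCACGTG), the EGR family motif (GCGTGGG), the motif of GATA factors (spelled AGATAAG) and the HNF1 motif (GTTAATNAT). Each motif was counted on its own, and matches to different motifs could share bases. The Ube2e3 window lies at chr2:78922831-78923130 in intergenic sequence and holds no match. The Dock2 window at chr11:34770487-34770786, in an intron of Dock2, holds an AP-1 match. The Steap3 window at chr1:120251311-120251610, in an intron of Steap3, holds a PU.1 and an NF-kB match. The intergenic Cd300a window at chr11:114884414-114884713 holds an NF-kB match and the intergenic Atf3 window at chr1:191254471-191254770 a C/EBP match. The Klf4 window at chr4:55623406-55623705, in an intron of a non-coding gene, holds a PU.1 and a C/EBP match.
Ube2e3 window: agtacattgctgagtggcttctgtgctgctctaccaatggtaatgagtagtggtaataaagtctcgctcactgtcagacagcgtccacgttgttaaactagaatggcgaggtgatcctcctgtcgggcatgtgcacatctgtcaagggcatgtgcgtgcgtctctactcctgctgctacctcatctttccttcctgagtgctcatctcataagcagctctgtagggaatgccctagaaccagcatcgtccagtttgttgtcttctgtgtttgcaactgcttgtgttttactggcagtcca
Dock2 window: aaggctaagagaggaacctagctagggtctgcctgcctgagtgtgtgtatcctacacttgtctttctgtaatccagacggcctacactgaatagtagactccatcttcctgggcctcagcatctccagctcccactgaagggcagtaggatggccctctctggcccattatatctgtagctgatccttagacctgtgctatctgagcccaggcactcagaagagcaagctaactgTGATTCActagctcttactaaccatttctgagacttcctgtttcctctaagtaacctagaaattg
Steap3 window: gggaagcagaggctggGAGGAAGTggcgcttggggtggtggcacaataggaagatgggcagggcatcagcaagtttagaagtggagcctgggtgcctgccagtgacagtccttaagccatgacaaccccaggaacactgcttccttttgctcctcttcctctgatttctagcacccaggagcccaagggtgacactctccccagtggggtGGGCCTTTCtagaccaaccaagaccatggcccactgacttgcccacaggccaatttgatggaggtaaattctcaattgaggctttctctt
Cd300a window: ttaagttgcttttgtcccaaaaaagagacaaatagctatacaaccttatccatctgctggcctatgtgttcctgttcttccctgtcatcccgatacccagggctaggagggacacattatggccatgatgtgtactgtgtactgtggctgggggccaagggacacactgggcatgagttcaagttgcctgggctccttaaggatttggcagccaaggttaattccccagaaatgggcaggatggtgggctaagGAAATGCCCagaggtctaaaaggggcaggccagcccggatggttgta
Atf3 window: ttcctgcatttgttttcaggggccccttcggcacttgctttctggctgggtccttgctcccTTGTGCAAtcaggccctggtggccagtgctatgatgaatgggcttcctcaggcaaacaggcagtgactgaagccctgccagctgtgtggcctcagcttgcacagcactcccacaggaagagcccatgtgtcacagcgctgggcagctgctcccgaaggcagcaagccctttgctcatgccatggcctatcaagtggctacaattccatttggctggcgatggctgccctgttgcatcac
Klf4 window: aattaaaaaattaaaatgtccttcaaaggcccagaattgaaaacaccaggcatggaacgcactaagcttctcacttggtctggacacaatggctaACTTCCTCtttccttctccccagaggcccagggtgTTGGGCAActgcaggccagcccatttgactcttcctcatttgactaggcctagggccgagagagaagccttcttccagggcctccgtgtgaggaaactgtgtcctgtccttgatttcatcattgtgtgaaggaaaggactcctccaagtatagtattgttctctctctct

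The depth behind these values was estimated from the lists. The H3K4me1 libraries held an estimated 7010000 fragments under LPS and 6860000 under PBS, and the median peak of either list rested on 17 fragments at its summit. The H3K27ac lists were short, with 4200 peaks under LPS and 52 under PBS, from 5660000 and 7210000 fragments. The median LPS H3K27ac peak rested on 9 summit fragments, a count whose exact Poisson interval runs from 4.12 to 17.1. Absence of an H3K27ac peak therefore means that none was called in these libraries, not that the mark was absent. The PBS H3K27ac library had the most fragments of the 4 and the fewest peaks, and the cause was not tested. With 52 peaks, the PBS list could exclude few regions. Of the genes that mark macrophages, 28 of 29 had an H3K4me1 peak within 10 kb of the TSS under LPS and 26 under PBS, against 49.2% and 42.4% of all protein-coding genes. The counts were 8 and 8 of 15 neutrophil markers, 7 and 6 of 12 dendritic cell markers, 9 and 7 of 15 lymphocyte markers, and 4 and 2 of 30 genes of other tissues. The part of other cell types in the results was not tested.

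Most distal peaks of this size that were shared by both treatments had no H3K27ac peak beside them. Of 20453 shared peaks in this range of width, 19182 had a summit over 1 kb from every TSS, and 16333 of these lay within 100 kb of a protein-coding TSS. An H3K27ac peak stood within 1000 bp of 964 of them, and the other 15369 (94.1%, interval 93.7 to 94.4) were the H3K4me1-only regions. The 964 are called H3K27ac-marked regions below, and 957 of them stood by an LPS peak, 14 by a PBS peak, 7 of them by both. A further 1964 peaks met the whole rule for position, width and H3K27ac but overlapped no PBS peak. At the limits of the rule, the H3K4me1-only region closest to acetylation lay 1003 bp from an H3K27ac peak, and the H3K27ac-marked region farthest from it lay 997 bp away. Peaks up to 50 bp too narrow for the rule had a median of 19 summit fragments, and so did those up to 50 bp above its lower limit. The medians on either side of the upper limit were 32 and 32.

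Wider windows brought H3K27ac into reach of more regions. An H3K27ac peak lay within 10 kb of 2152 H3K4me1-only regions (14.0%) and within 100 kb of 7919 (51.5%). Among all LPS H3K4me1 peaks on the same chromosomes the shares were 16.7% and 50.4%, but these include peaks within 1000 bp of H3K27ac, which the rule removed from the H3K4me1-only regions. With the 964 H3K27ac-marked regions counted in, the shares were 19.1% and 54.4%.

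The strength of H3K4me1 in these regions differed little between the LPS and the PBS library. The median region was 818 bp wide (interquartile range 633 to 1126) and had 23 fragments at its summit under LPS (range 9 to 65), or 3.28 per 1000000 fragments of the library. The overlapping PBS peak had 21 (range 8 to 64), or 3.06 per 1000000. The median LPS to PBS ratio on this scale was 1.08, with an interquartile range of 0.897 to 1.31, and 60.8% of regions had a ratio above 1. Over all LPS H3K4me1 peaks that overlapped a PBS peak, the median was 1.03 and the share above 1 was 53.0%. In the H3K27ac-marked regions these values were 1.04 and 55.8%. A count of 23 fragments has an exact Poisson interval of 14.6 to 34.5, and a count of 21 one of 13.0 to 32.1, so the ratio of a single median region could not be told from 1 at this depth. The width limit of the rule was put on the LPS peak alone. When the same rule was put on the PBS list, a choice made after seeing the data, 13815 regions were found with a median ratio of 1.06.

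**Figure D1:**
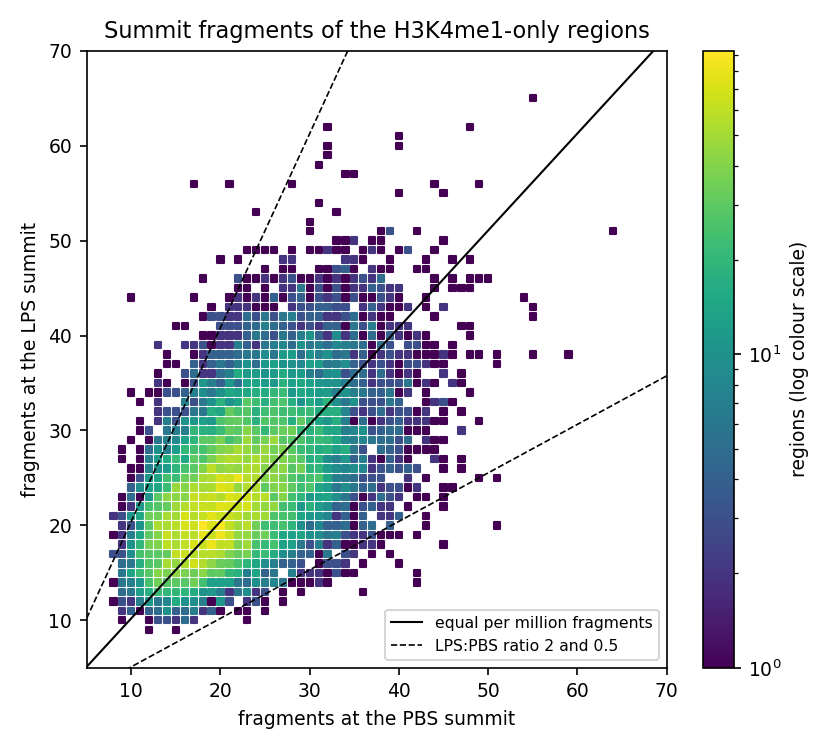
Fragments at the H3K4me1 summit of each of the 15369 H3K4me1-only regions under LPS (vertical axis) against those at the overlapping PBS peak (horizontal axis), with the number of regions per square on a log colour scale. Most regions lie near the solid line of equal depth-scaled fragments, 247 lie at or above the upper dashed line (ratio 2) and 63 at or below the lower dashed line (ratio 0.5).

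Few regions differed 2-fold. The ratio was at least 2 in 247 regions (1.61%), beside a background of 1.29% over all 44060 shared LPS peaks, and at most 0.5 in 63 (0.410%), beside 1.48%. Both ratios come from the lists that chose the regions and are a description. The median distance between the LPS and PBS summits was 151 bp over all regions, 200 bp in the 247 and 619 bp in the 63. When the overlapping PBS peak with the most fragments was used instead, a setting added after seeing the data, 194 regions had a ratio of at least 2 and 71 a ratio of at most 0.5. That setting can only lower a ratio or leave it as it was, so the direction of both changes was fixed in advance. Among the 6161 regions whose summits lay within 100 bp of each other, 83 had a ratio of at least 2 and 12 a ratio of at most 0.5, with a median of 1.08.

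In the regions at both ends of this range the LPS and PBS summits lay apart. The highest ratio was that of a region in an intron of Socs6, a suppressor of cytokine signalling, with 44 summit fragments under LPS and 10 under PBS (ratio 4.31) and summits 765 bp apart. A region in an intron of Fam120a had 34 and 10 fragments (ratio 3.33) and summits 449 bp apart, and one next to Haao, an enzyme of tryptophan breakdown, had 56 and 17 (ratio 3.23) with summits 725 bp apart. At the low end, a region in an intron of Arf2, a small GTPase gene, had 14 fragments under LPS and 42 under PBS (ratio 0.326). The region next to Rap1b, another small GTPase gene, had 15 and 42 (ratio 0.350), and the one next to Mapk6, an atypical MAP kinase gene, had 13 and 36 (ratio 0.354). In these 3 the summits were 1080, 1041 and 619 bp apart, so the fragment counts of all 6 regions were read at separate places.

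The LPS to PBS width ratio differed between regions chosen from the LPS list and those chosen from the PBS list. LPS peaks were wider than their PBS partner in 72.5% of regions, with a median width ratio of 1.41. Over all shared LPS peaks, of any width, these values were 54.5% and 1.07, and in the H3K27ac-marked regions 65.4% and 1.26. The regions chosen from the PBS list had a median width ratio of 1.01. The part of the width limit in these values was not tested. A single PBS peak was overlapped by 77.5% of the regions, 2 by 20.6% and 3 or more by 1.93%. Summits lay within 100 bp of each other in 40.1% of regions and within 200 bp in 58.1%, and 53.6% overlapped by at least 50% of both peaks. In the H3K27ac-marked regions, 33.1% (interval 30.2 to 36.1) had summits within 100 bp, below the 40.1% (39.3 to 40.9) of the H3K4me1-only regions. Over all shared LPS peaks the share was 44.6%. The H3K27ac-marked regions were also wider, with a median of 879 bp against 818 bp, and the part of width was not tested.

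The strongest H3K4me1-only regions were next to genes of varied function. The region with the highest −log10 q under LPS, 51.2, was intergenic and 54857 bp downstream of the TSS of Ube2e3, a ubiquitin-conjugating enzyme gene. It had 65 summit fragments under LPS and 55 under PBS, with summits 7 bp apart, and its nearest H3K27ac peak was 6736 bp away. The second lay in an intron of Dock2, which encodes an activator of Rac in leukocytes, with 62 and 32 fragments. The third lay in an intron of Steap3, a metalloreductase gene of iron uptake, with 60 and 40. Regions in an intron of Sqor, a mitochondrial sulfide oxidase gene, and in an untranslated exon of Traf6, the ubiquitin ligase that relays Toll-like receptor signals, followed with 57 and 35 and with 50 and 45 fragments. The Traf6 region lay 20713 bp downstream of the TSS.

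The remaining 3 of the highest 8 did not all lean to LPS. A region in an intron of Nim1k, whose nearest protein-coding TSS was that of the cholesterol synthesis gene Hmgcs1, had 51 fragments under LPS and 64 under PBS. Regions in an intron of Cass4, a scaffold gene of cell adhesion, and next to Vapb, an endoplasmic reticulum tether gene, had 50 and 37 and 49 and 32. In 7 of the 8 the LPS summit had more fragments than the PBS summit, among regions chosen by the LPS value. The 4 regions with the highest −log10 q under PBS showed the opposite, with 38 fragments under LPS and 51 under PBS in an intron of Flrt2, 38 and 59 in an intron of the Src-family kinase gene Fyn, 31 and 49 in an intron of Mcc, and 43 and 55 next to Tmem243.

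The order of the peaks within a list depended on the local control level as well as on the fragments. That level was above the genome background in 90.9% of the regions under LPS and 92.9% under PBS. At the Dock2 region it was 1.28 times the background under LPS and 10.8 times under PBS, so 32 fragments gave a PBS rank of 30751. At the Flrt2 region it was 10.7 times the background under LPS, and 38 fragments gave an LPS rank of 25931 where the PBS peak ranked 2.

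The regions were mainly intronic, as were the LPS H3K4me1 peaks as a whole. Of the 15369 summits, 64.3% (63.6 to 65.1) lay in an intron of a protein-coding gene, 3.62% in an intron of a non-coding gene and 25.5% (24.8 to 26.2) between genes. Coding exons held 1.54%, untranslated exons 2.22% and non-coding exons 2.81%. Among all LPS peaks on the same chromosomes, 57.4% lay in an intron of a protein-coding gene and 28.3% between genes. Those include peaks near a TSS and peaks over 100 kb from a protein-coding TSS, which the rule left out. The summit lay inside the gene with the nearest protein-coding TSS in 55.0% of regions, beside 50.7% of all LPS peaks. It lay downstream of that TSS in 67.2% of regions, beside 64.6%. The median distance to that TSS was 18553 bp, with 32.3% of regions at 1 to 10 kb, 48.8% at 10 to 50 kb and 18.9% at 50 to 100 kb.

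The H3K27ac-marked regions were less often intronic. Of these, 56.6% lay in an intron of a protein-coding gene, a difference of −7.68 percentage points (95% Newcombe interval −10.9 to −4.49), and 32.0% lay between genes, a difference of 6.46 points (3.51 to 9.55). Their share at 1 to 10 kb from a TSS, 32.7%, differed by 0.384 points (−2.60 to 3.50). The peaks found only under LPS lay closer to genes, with 43.9% at 1 to 10 kb (difference 11.6 points, 9.34 to 14.0). Neighbouring peaks are not independent, so these intervals are too narrow. Median GC content was 48.3% in both the H3K4me1-only and the H3K27ac-marked regions, where the 19 chromosomes as a whole have 41.9%. CpG-rich windows, with a CpG observed to expected ratio of at least 0.6, made up 0.963% of the H3K4me1-only regions. The share was 0.726% in the H3K27ac-marked regions and 5.46% in all LPS peaks, which include peaks near a TSS. At least 50% of the window was repeat-masked in 5.97% of regions.

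PU.1, AP-1 and the rarer EGR motifs were more frequent in these regions than in the genome and denser at the summits than beside them. A PU.1 match lay within the 300 bp of 7.31% of the H3K4me1-only regions (6.91 to 7.74), 4.03 times the 1.81% of consecutive 300-bp windows of the genome. An AP-1 match lay in 15.5% (14.9 to 16.1), 1.74 times the genome share of 8.88%. RUNX matches stood at 9.04% against 7.02%, NF-kB at 4.67% against 3.80%, EGR at 1.53% against 0.801% and MITF/TFE at 1.74% against 1.22%. C/EBP matches, at 13.6%, were as frequent as in the genome (13.7%). IRF was below it at 9.96% against 11.6%, and so were the motifs of the factors of other lineages, GATA at 3.73% against 4.40% and the hepatocyte factor HNF1 at 0.573% against 1.07%. At least 1 match to PU.1, C/EBP or AP-1 was found in 32.4% of regions, and 51.0% had no match to any of the 8 motifs other than GATA and HNF1. These shares were close to the 29.8% and 53.2% of all LPS H3K4me1 peaks and to the 31.5% and 51.9% of H3K27ac-marked regions. The EGR share lay below the 1.90% of all LPS peaks, which include summits near a TSS, and was close to the 1.56% of H3K27ac-marked regions.

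The genome windows differ from the regions in base composition, and the same letters in reversed order give a comparison of equal composition, added after seeing the data. The PU.1 letters reversed (TGAAGGAG) matched 2.49% of the regions and 2.01% of genome windows, a ratio of 1.24. The AP-1 letters reversed (ACTNAGT) matched 9.55% and 7.64%, a ratio of 1.25. The ratios of RUNX (1.29) and NF-kB (1.23) to the genome were close to those of the reversed letters, and those of EGR (1.91) and MITF/TFE (1.43) were higher. Motifs other than PU.1 and AP-1 were not run with letters reversed, so the part of base composition in their differences from the genome was not tested. Position within the region gave a further comparison. PU.1 matches numbered 0.280 per kb within 50 bp of the summit, 0.182 per kb at 100 to 250 bp and 0.0856 per kb at 700 to 1000 bp. For AP-1 the numbers were 0.683, 0.461 and 0.328, for C/EBP 0.502, 0.527 and 0.445, for EGR 0.0774, 0.0449 and 0.0406, and for GATA 0.124, 0.131 and 0.140. NF-kB gave 0.157, 0.164 and 0.142, and RUNX 0.354, 0.303 and 0.291. The reversed PU.1 letters gave 0.0976, 0.0802 and 0.0704.

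**Figure D2:**
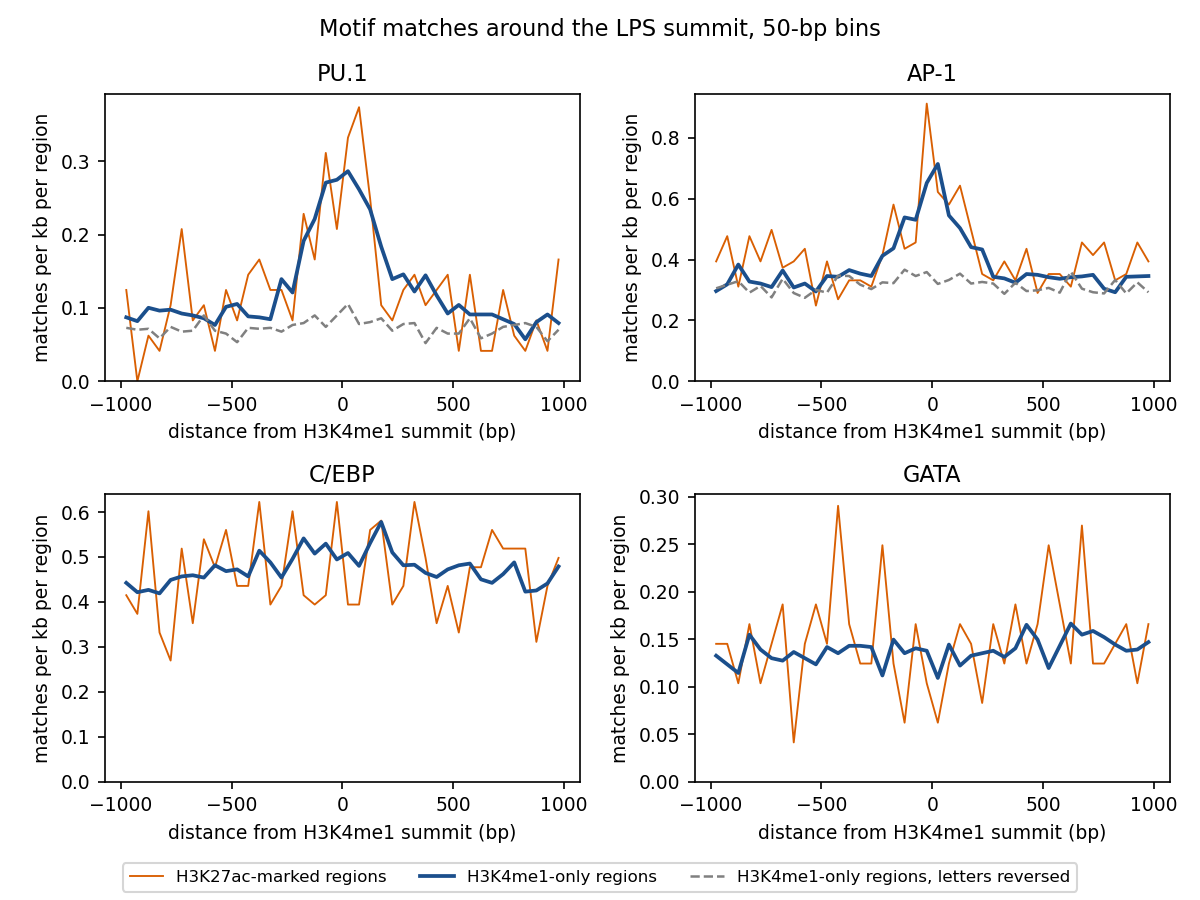
Motif matches per kb per region (vertical axes) by distance from the LPS H3K4me1 summit in bp (horizontal axes), in 50-bp bins, for 15369 H3K4me1-only regions (blue), 964 H3K27ac-marked regions (orange) and, for PU.1 and AP-1, the letters in reversed order (grey dashes). PU.1 and AP-1 rise to 0.280 and 0.683 per kb within 50 bp of the summit of H3K4me1-only regions, while C/EBP and GATA have no such rise and the orange lines scatter more and rest on fewer regions.

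The share of regions with PU.1 and AP-1 matches was higher where H3K4me1 was stronger. In regions with 9 to 18 LPS summit fragments, 5.02% (4.31 to 5.83) held a PU.1 match, followed by 6.38% at 19 to 22, 7.59% at 23 to 27 and 9.50% (8.67 to 10.4) at 28 to 65. AP-1 went from 12.9% (11.8 to 14.1) to 18.1% (17.0 to 19.3) over the same classes. Classed by the fragments of the PBS library instead, PU.1 went from 5.97% (5.34 to 6.66) to 9.77% (8.76 to 10.9) and AP-1 from 13.7% (12.8 to 14.7) to 17.3% (16.0 to 18.7). Median GC content moved with this order, from 46.0% in the lowest LPS class to 50.3% in the highest, and so did median width, from 657 to 1061 bp. Their part in it was not tested. The reversed PU.1 letters went from 2.15% (1.70 to 2.71) to 2.82% (2.37 to 3.35) over the LPS classes.

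**Figure D3:**
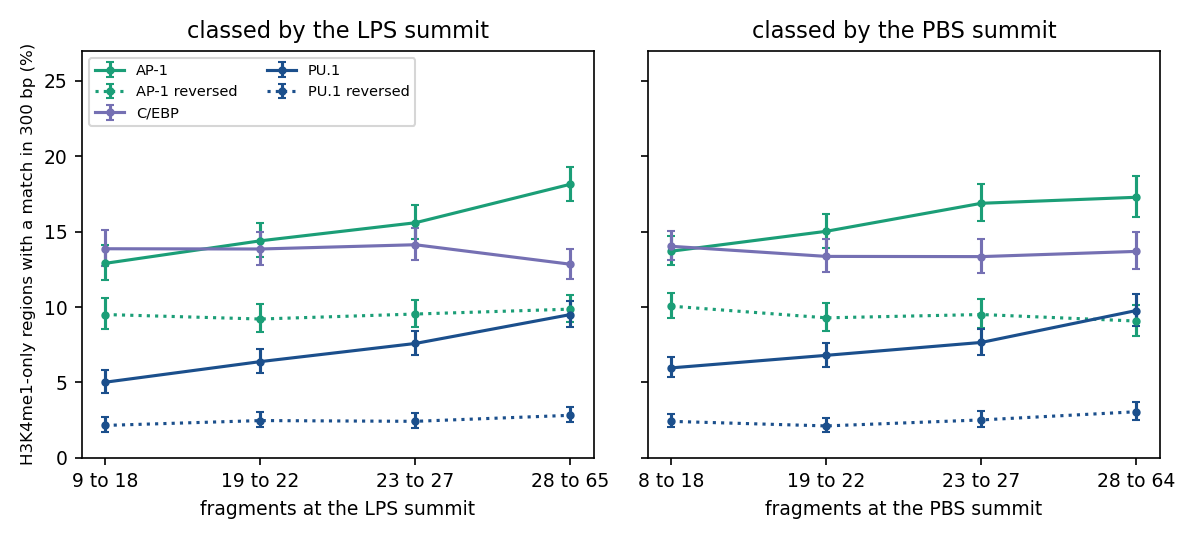
Share of H3K4me1-only regions with a motif match in the 300 bp around the summit (vertical axis, percent, with 95% Wilson intervals as bars), in 4 classes of fragments at the LPS summit (left) and at the PBS summit (right). PU.1 goes from 5.02% to 9.50% and AP-1 from 12.9% to 18.1% over the LPS classes, while C/EBP and the reversed letters (dotted) change less.

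Place in the genome went with smaller differences. Intergenic regions held a PU.1 match in 8.48% (7.64 to 9.39) and intronic ones in 6.92% (6.45 to 7.43). For AP-1 the shares were 17.9% (16.7 to 19.1) and 14.9% (14.2 to 15.6). Regions with an H3K27ac peak within 10 kb held PU.1 in 5.90% (4.98 to 6.98), and those with none within 100 kb in 7.60% (7.02 to 8.22).

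By motif, the H3K4me1-only and H3K27ac-marked regions could not be told apart at the limit of 1000 bp. The PU.1 share of the H3K27ac-marked regions was 7.78%, a difference of 0.467 points (−1.12 to 2.37). The AP-1 share was 15.9% (difference 0.392 points, −1.85 to 2.90), the NF-kB share 5.29% (0.619 points, −0.672 to 2.25) and the C/EBP share 11.9% (−1.71 points, −3.68 to 0.554). The intervals of all 10 motifs held 0. The PU.1 difference turned with the H3K27ac limit. It was 3.05 points (0.673 to 6.00) when only overlapping H3K27ac peaks counted as marked and −1.35 points (−2.38 to −0.195) when those within 5000 bp did. The peaks found only under LPS held fewer PU.1 matches (5.50%, difference −1.81 points, −2.83 to −0.646) and AP-1 matches (13.5%, −1.94 points, −3.49 to −0.254) and more MITF/TFE matches (2.49%, 0.751 points, 0.110 to 1.56). These peaks were also weaker, with a median of 17 summit fragments and a width of 614 bp.

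The regions were spread over all 19 chromosomes, at 4.81 per Mb on chromosome 14 to 7.37 per Mb on chromosome 2, and many had another region nearby. Within 10 kb of another H3K4me1-only region lay 68.5% of them, and they formed 8129 groups and single regions at that distance. Within 1000 bp of another lay 32.5%, and joining regions at that distance left 12545. The same shares were not computed for other LPS H3K4me1 peaks, so grouping cannot be called particular to these regions. The largest group at 10 kb had 22 regions over 64833 bp of Ptk2b (chr14:66212830-66277662), the gene of the kinase Pyk2, and held no H3K27ac-marked region. The next had 20 regions at Tec, a kinase of immune receptor signalling, and 19 at Notch2, a Notch receptor. Of all regions, 846 shared their PBS peak with another, so the PBS peaks behind the 15369 regions numbered 14940.

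Many regions thus fell to few genes, where neighbouring peaks were counted as separate regions. Of 20780 protein-coding genes, 5577 (26.8%) were the nearest of at least 1 H3K4me1-only region and 649 (3.12%) of at least 1 H3K27ac-marked region. A single region was assigned to 2462 genes, while 928 genes with 5 or more held 46.1% of all regions. The most, 26, were next to Tns3, a tensin gene of cell adhesion, which also had 3 H3K27ac-marked regions. Its regions had 15 to 50 LPS fragments and 12 to 38 PBS fragments, with a median ratio of 0.999.

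The other genes with the most regions were Notch2 (23 regions), Ptk2b (22), Tec (21), Prkch, a protein kinase C gene (19), Mtss1, an actin and membrane-bending gene (19), Ppp3ca, the catalytic subunit of calcineurin (18) and Lyst, a regulator of lysosome traffic (18). Hpcal1, Tnfrsf1b, a receptor of tumour necrosis factor, Nrp1 and Osbpl8 also had 18 each. The median ratios of these genes ran from 0.877 at Tnfrsf1b to 1.31 at Osbpl8. All 22 regions of Ptk2b and all 19 of Prkch lay inside the gene, but 5 of 18 at Lyst. Within 100 kb of their TSSs, Ptk2b, Tec and Lyst had no LPS H3K27ac peak and Tns3 had 9. Long genes and genes with distant neighbours can gather more regions by the nearest-TSS rule, and their part was not tested.

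Of the 9 lists compared, macrophage identity genes were next to the regions most often. Of the 29 macrophage identity genes, 22 (75.9%, 57.9 to 87.8) were the nearest gene of at least 1 region, against the background of 26.8%. Of the 40 primary LPS response genes, induced without new protein synthesis, 24 were (60%, 44.6 to 73.7). That share was 27.5% (16.1 to 42.8) when only regions of 1000 bp or more were counted, beside a background of 14.1% of all genes for those regions. The counts were 14 of 25 for Toll-like receptor signalling (56.0%), 10 of 20 for the IL-4 response (50%) and 16 of 34 for late or interferon-dependent genes (47.1%, 31.5 to 63.3). They were 6 of 12 for dendritic cell markers, 6 of 15 for neutrophil markers, 4 of 15 for lymphocyte markers (26.7%) and 5 of 30 for genes of other tissues (16.7%, 7.34 to 33.6). With any H3K4me1-only region within 100 kb counted, nearest or not, the share of all genes was 60.4%. The counts were 28 of 29 macrophage identity genes, 35 of 40 primary response genes and 24 of 25 Toll-like receptor signalling genes. They were 17 of 20 for the IL-4 response and 27 of 34 for late genes. Markers of other cells were also high at this distance, with 14 of 15 for neutrophils and 11 of 12 for dendritic cells. Lymphocyte markers had 10 of 15 and genes of other tissues 9 of 30.

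**Figure D4:**
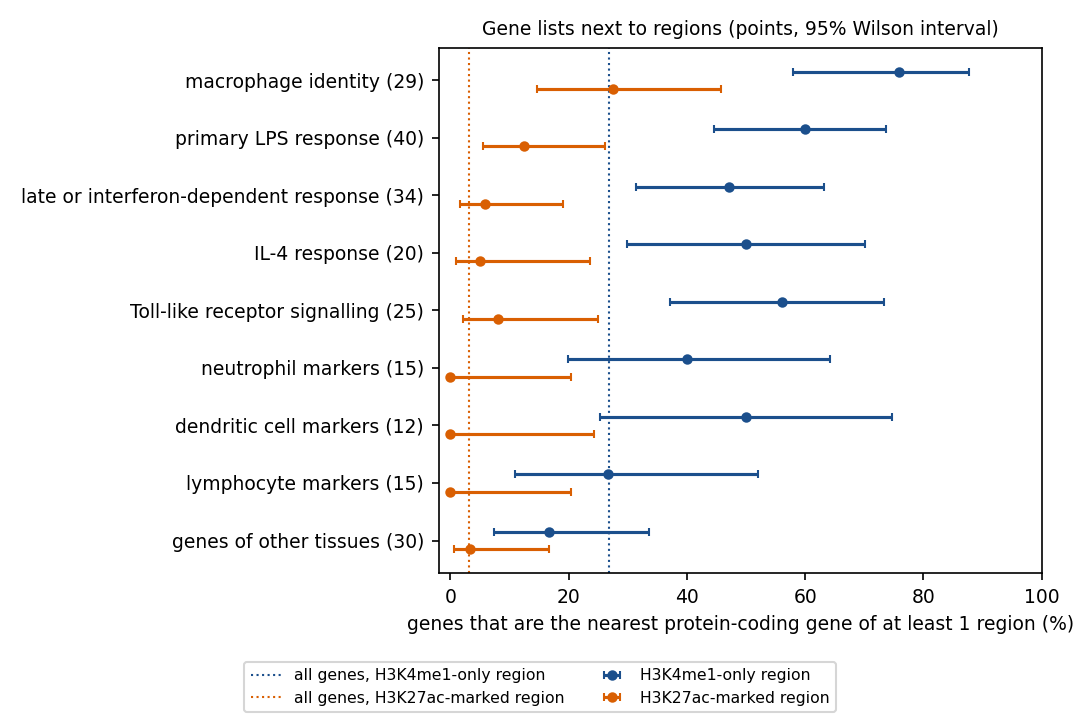
Share of the genes in each list (with the number of genes on chromosomes 1 to 19 in brackets) that were the nearest protein-coding gene of at least 1 H3K4me1-only region (blue) or H3K27ac-marked region (orange), with 95% Wilson intervals as bars. The dotted lines are the shares over all protein-coding genes, 26.8% and 3.12%, and the blue shares run from 16.7% for genes of other tissues to 75.9% for macrophage identity.

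Among macrophage identity genes, the most regions were next to Mrc1, the mannose receptor (14), Irf8, a myeloid transcription factor (11), Csf1r, the receptor for the growth factor of macrophages (10) and Msr1, a scavenger receptor (9). The 14 regions of Mrc1 had 13 to 28 LPS and 16 to 31 PBS fragments, and the 11 of Irf8 had 12 to 34 and 14 to 26. The strongest region of Csf1r lay 10011 bp upstream of its TSS with 42 fragments under LPS and 32 under PBS. No H3K27ac-marked region was assigned to Mrc1, Irf8 or Csf1r, and 1 was assigned to Msr1. The gene of PU.1 itself, Spi1, chosen after its values were seen, had 3 H3K27ac-marked regions and no H3K4me1-only region. Of the whole list, 8 of 29 genes (27.6%) were the nearest of an H3K27ac-marked region, beside 3.12% of all genes.

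Among primary LPS response genes, Atf3, a transcription factor that restrains cytokine genes, had 14 regions and no H3K27ac-marked one. Its strongest region, shown above as sequence, lay 36582 bp upstream of the TSS and had 42 fragments under LPS and 29 under PBS. Nfkb1, which encodes the NF-kB subunit p50, had 8 regions inside the gene, and the strongest had 31 and 39 fragments. Egr3, an immediate-early factor, had 8 regions and Klf6, a zinc-finger factor, 5 regions beside 3 H3K27ac-marked ones. The strongest region thus had more fragments under LPS at Atf3 and more under PBS at Nfkb1. Of the 40 genes, 5 (12.5%) were the nearest of an H3K27ac-marked region, beside the same 3.12%.

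Receptors and adaptors of LPS sensing also had regions. Tlr4, the LPS receptor, had 13, with 16 to 46 fragments under LPS and 12 to 31 under PBS, and Map3k8, the kinase Tpl2, had 13 beside 2 H3K27ac-marked regions. Irak2, an adaptor kinase, had 7 and Traf6 had 5. Late and IL-4 response genes had 27 and 37 regions in all, of which the following genes held the most. Il12b, a subunit of IL-12, had 5 regions, Usp18 and Edn1 3 each and Cxcl10, Cmpk2 and Acod1 2 each, and Ch25h, a cholesterol hydroxylase gene, had 9, the transglutaminase gene Tgm2 7, the IL-4 receptor gene Il4ra 5 and Socs1 4. None of these 10 genes was the nearest of an H3K27ac-marked region, and 2 of 34 and 1 of 20 genes of the whole lists were. At Il4ra the strongest region had 39 fragments under LPS and 41 under PBS.

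Markers of other cells had 8 regions (neutrophil), 12 (dendritic cell), 7 (lymphocyte) and 9 (other tissues) in all. The most were 6 at Batf3, a dendritic cell factor, and 3 each at Elane, a neutrophil elastase gene, Gata3, a T cell factor, Ttr, a liver transport protein gene, and Apoa1, an apolipoprotein gene. The strongest Batf3 region lay 17084 bp downstream of its TSS and had 41 fragments under LPS and 37 under PBS, and the strongest Gata3 region had 37 and 32. Regions were assigned by the nearest TSS and may belong to another gene. For comparison, 109 regions fell to the 29 macrophage identity genes and 73 to the 40 primary response genes.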

How the data were processed

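CUT&RUN peak lists of 4 libraries were used, and the 2 IgG libraries were not analysed on their own. According to the methods and the submitters' processing notes, the authors trimmed the reads, mapped the pairs to GRCm38 (Bowtie2 2.4.4), removed blacklisted regions and called peaks per library with MACS2 2.2.7.1. The deposited lists give, per peak, a score (a whole number made from the q-value, not used here), the fold enrichment at the summit, which is a ratio to the local control level, and the −log10 p and −log10 q, all made by the authors' peak caller.

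From these values the fragments at each summit were recovered, since fold enrichment (pseudocount 1) and Poisson p together fix them. The deposited p was returned within 0.002 (−log10 units) for 100% of peaks in each list, and on 3 simulated lists at least 99.95% of fragment counts were recovered. The simulated lists used larger factors for scaling fragments to the control than those of the H3K4me1 lists, 0.523 under LPS and 0.533 under PBS. The simulation therefore did not cover the setting of those lists. Ratios are scaled to the fragments of each library, against the PBS peak that shares the most bases. Genes came from GENCODE M21, a release other than that of the authors, with 1 TSS per gene. With the TSS of every transcript in the 1 kb limit, a setting added after seeing the data, 14438 regions met the rule. Repeats and sequence came from the RefSeq GRCm38 assembly (samtools 1.23.1, pysam 0.24.0). Overlaps, checked against bedtools 2.31.1, needed 1 bp. Wilson and Newcombe intervals (95%, statsmodels 0.14.6) cover counting error only. With 1 library per group there is no test and no p-value.

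The regions, gene lists, motifs and named genes were chosen with earlier results of these data known. Named were the nearest genes of the 8 regions with the highest −log10 q under LPS and the 4 under PBS, the 8 genes with the most regions, up to 4 genes per list with the most regions, and the 3 highest and 3 lowest ratios. Alternatives changed the overlap, the H3K27ac distance, the peak threshold, the TSS limits, the width, the motif window and the gene assignment.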

Additional observations from a re-analysis of the deposited data

How the results depend on the processing

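No paired analysis was possible because each treatment and antibody had 1 library, and leaving out a replicate was impossible for the same reason. The number of regions fell to 8239 when 50% of both peaks had to overlap and to 5112 at a width of 1000 bp or more. The median LPS to PBS ratio of 1.08 was 1.07 with the 50% overlap, 1.06 when peaks of both lists needed a −log10 q of 5, 1.06 under 1000 bp and 1.11 at 1000 bp or more. It was 1.06 against the strongest overlapping PBS peak and 1.06 for regions chosen from the PBS list, both settings added after seeing the data. The first of these 2 settings can only lower a ratio or leave it. The intron share of 67.9%, over both kinds of intron, was 67.1% with the 50% overlap, 69.0% over 2500 bp from every TSS, 67.02% under 1000 bp and 69.8% at 1000 bp or more. The PU.1 share of 7.31% was 7.79% with the 50% overlap, 7.74% at the −log10 q of 5, 15.3% over the whole peak and 5.13% in 200 bp. It was 2.49% with the letters reversed, a setting added after seeing the data. The PU.1 difference of 0.467 points between H3K27ac-marked and H3K4me1-only regions was 3.05 with overlapping H3K27ac only and −1.35 with H3K27ac within 5000 bp. The share of primary LPS response genes next to a region was 60%, and it was 27.5% at a width of 1000 bp or more, where the share of all genes was 14.1%, and 87.5% with any region within 100 kb. The other 45 of 66 alternative values of these results stayed within 1.5 times the main count or within the main interval. Where not said otherwise, the cause of a change was not tested. The median H3K27ac peak under LPS rested on 9 fragments at its summit, and the PBS list held 52 peaks. The regions without an H3K27ac peak are thus regions where none was called in these libraries.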
